A study of Mus musculus with 2 samples.

Results

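The 40 genes described here are imprinted genes of the mouse, taken as a list of symbols from the 51912 gene rows of 2 RNA-seq libraries, and all 40 were found. They lie in 19 imprinted domains on 10 chromosomes. By known parental expression 11 are expressed from the maternal allele and 22 from the paternal allele, 6 are imprinted in only some tissues or isoforms, and Gnas gives transcripts of both kinds. Both libraries came from mouse embryonic fibroblasts (MEFs) on a C57BL/6 background, cultured embryonic connective tissue cells that had been immortalized with SV40 T antigen and infected with adenovirus carrying Cre recombinase. In the line called KS Usp16 was wild-type, and in the line called UKS its floxed alleles had been deleted by Cre. Each line gave 1 library, so no difference below has a replicate check, no p-value could be computed, and intervals cover counting error only. The sources used here do not say if a line came from 1 embryo, a pool or a clone. The reads do not separate the parental alleles, so every value is the sum of both, and fewer expressing cells cannot be told apart from less RNA per cell.

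Imprinted genes are expressed from 1 parental allele. In most domains this is because a control region carries DNA methylation on only the maternal or only the paternal chromosome. That methylation is set in the germ line and kept through later cell divisions. Many domains hold a long noncoding RNA, such as Kcnq1ot1 or Airn, whose transcription silences neighbouring genes on the same chromosome, in part through Polycomb complexes that ubiquitinate histone H2A. The protein made from Usp16 takes this ubiquitin off again. Most imprinted genes are highly expressed in the embryo and placenta, where paternally expressed genes such as Igf2 tend to favour growth and maternally expressed genes such as H19, Cdkn1c and Grb10 tend to restrain it.

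The comparison asks which transcripts differ between the line labelled wild-type for Usp16 and the line labelled as deleted. The rounded counts summed to 26561600 in KS and 23205734 in UKS, so that 3 counts, the floor used here, equalled 0.114 and 0.128 CPM (counts scaled to a common library size, here with TMM factors). Usp16 itself had 1195 counts in KS and 459 in UKS (45.3 and 19.7 CPM), 2.30-fold lower in UKS (95% interval 2.07 to 2.57). A count over the whole gene does not separate its deleted part from the rest, so it does not check the deletion itself. Xist had 1 count in KS and 6998 in UKS, and the Y-linked genes Ddx3y, Uty, Kdm5d and Eif2s3y had 817 to 1511 counts in KS and 0 to 8 in UKS. The 2 lines therefore differ in sex-linked transcripts as well as in Usp16, and the genotype cannot be told apart from the sex or origin of the line. Of 9 fibroblast markers, all were present in both libraries, 7 lay below a log2 ratio of 0 and 3 (Thy1, Pdgfra and Sparc) were at least 2-fold lower in UKS, with a median of −0.80. Summed over the 9, KS had 19681 CPM and UKS had 21048 CPM. Without Fn1, the fibronectin gene, the sums were 10686 and 6467 CPM. The 5 trophoblast markers together had 1 count in KS and 0 in UKS. The summed levels of neuron, skeletal muscle and liver markers were 0.942 to 15.5 CPM, with the neuronal Rbfox3 and the muscle gene Myog at 0 counts in both libraries. Other markers of these lists were present. Of the neuron markers Stmn2 had 38 counts in KS and 196 in UKS, Elavl4 had 105 and 3, Map2 136 and 116, and Snap25 33 and 26. Of the muscle markers Acta1 had 43 and 1, and Des had 5 and 17. The part of these differences in the results below was not tested.

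Together the imprinted genes held 122710 counts in KS, or 0.462% of the library, and 80696 in UKS, or 0.348%. All 40 had at least 1 count in KS and 38 had one in UKS. Ratios, log2((UKS + 1)/(KS + 1)) in CPM, were given to the 33 genes whose mean reached 1 CPM. The added 1 CPM makes differences of low genes look smaller, and folds were therefore taken from CPM without it. Rtl1 passed only through its level in KS. In UKS 11 of the 33 were at least 2-fold lower, against 10.7% of the 13015 genes of the whole table that passed the same minimum, and 1 of 33 was at least 2-fold higher, against 5.81%. The lower genes were H19, Kcnq1ot1, Plagl1, Meg3, Rian, Ube3a, Peg10, Ppp1r9a, Asb4, Airn and Slc38a4, and the higher gene was Dio3. The median ratio was −0.54 over the 33 genes (range −2.09 to 2.07) and 0.03 over all genes, and 21 of 33 (63.6%) lay below 0, against 48.1% of all genes. The 95% interval of the ratio of counts left out equality for 26 of the 33 (78.8%), close to the 80% of all 13015 genes, and included it for Usp29, Zim1, Mest, Copg2, Snrpn, Sgce and Mcts2.

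**Figure D1:**
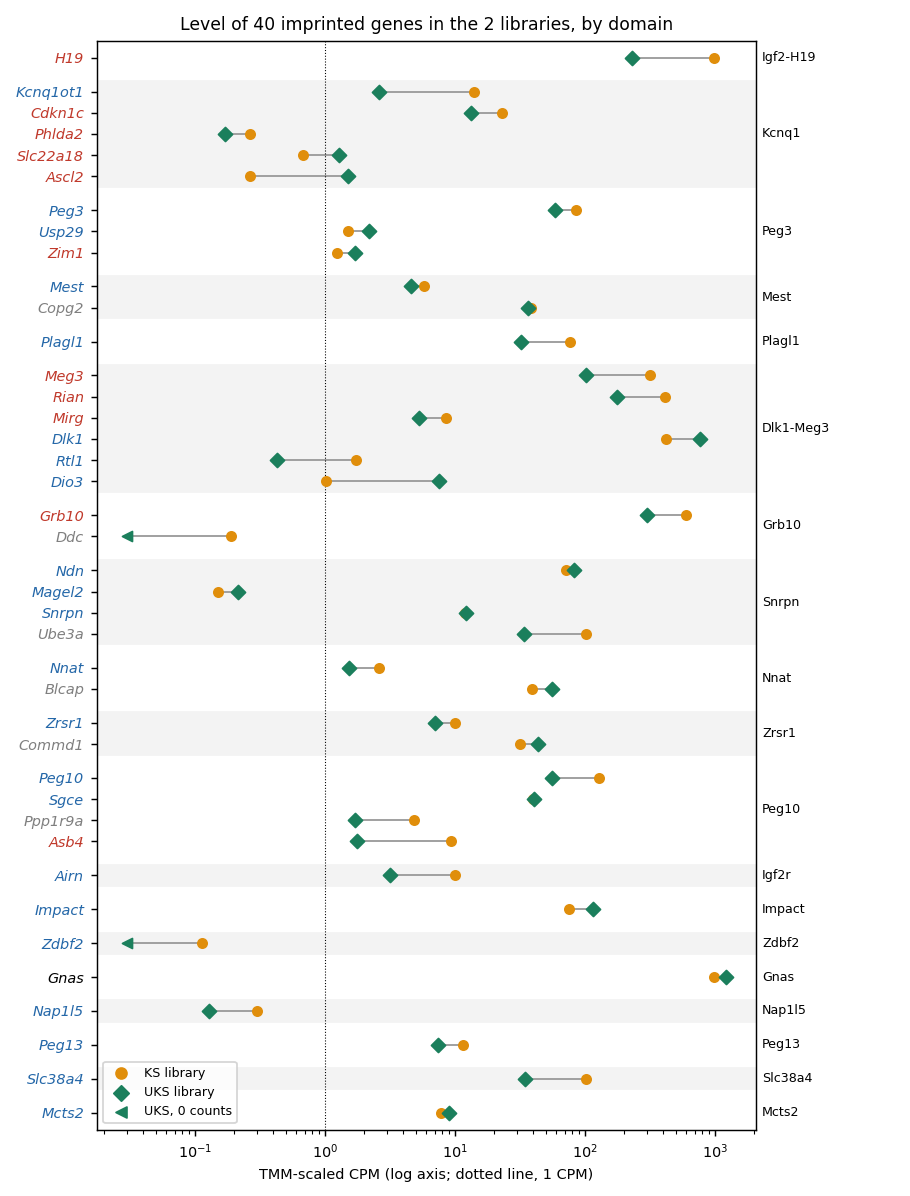
Levels of the 40 imprinted genes in TMM-scaled CPM (log axis), grouped by domain, with KS as circles and UKS as diamonds, 1 library each. A triangle marks 0 counts in UKS, and gene names are red for maternally expressed, blue for paternally expressed, grey for genes imprinted in few tissues and black for Gnas. H19, Meg3, Rian and Slc38a4 sit to the left in UKS, and Dlk1 and Dio3 to the right.

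In these libraries the ratio of a gene also followed its transcript. Across genes Spearman's rho was 0.52 with GC content and −0.40 with transcript length, so that long, AT-rich transcripts were read lower in UKS (genes are not independent replicates). Removing a smooth trend in length and GC content left 6 of the 33 imprinted genes at least 2-fold lower, against 4.98% of 12997 genes, and 4 at least 2-fold higher, against 5.5%. Of the 11 genes that were lower as counted, H19, Asb4, Airn and Slc38a4 remained so, and Cdkn1c and Nnat were added. The higher genes were then Dio3, Impact, Usp29 and Zim1. Of these, Usp29 and Zim1 rest on at most 51 counts per library, and their counting intervals include equality. The full trend was removed from such low genes too, although the added 1 CPM makes their ratios smaller. The median ratio became −0.18 over the imprinted genes and 0.005 over all genes. Because a difference that truly follows length or GC content is removed as well, both values are given below for the genes the results turn on. Which of them is nearer to the cells' RNA was not tested.

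By parental expression the maternally expressed genes had the lowest median. Of their 8 measured genes 7 lay below 0, 4 (H19, Meg3, Rian and Asb4) were at least 2-fold lower and none was higher, and the median was −1.11. Their exception was Zim1. Of the 19 measured paternally expressed genes 11 lay below 0, 5 (Kcnq1ot1, Plagl1, Peg10, Airn and Slc38a4) were at least 2-fold lower and 1 (Dio3) was higher, with a median of −0.47. Of the 5 measured genes imprinted in few tissues, Ube3a and Ppp1r9a were lower and the median was −0.08. Of all genes 10.7% were at least 2-fold lower, 5.81% were higher and 48.1% lay below 0. With the trend removed 3 maternally expressed genes were lower and 1 higher, and 3 paternally expressed genes were lower and 3 higher. No gene imprinted in few tissues then passed 2-fold. Of all genes 4.98% were lower and 5.5% higher on that scale. The group medians were then −0.76, −0.18 and 0.21. The parental groups also differ in domain and in kind of RNA. Meg3, Rian and Mirg all lie in the Dlk1-Meg3 domain, and with H19 they are noncoding. Of the measured paternally expressed genes only Kcnq1ot1, Airn and Peg13 are noncoding. As counted the noncoding imprinted genes had a median of −1.39 and the protein-coding ones −0.18. The difference between the parental groups was not tested.

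**Figure D2:**
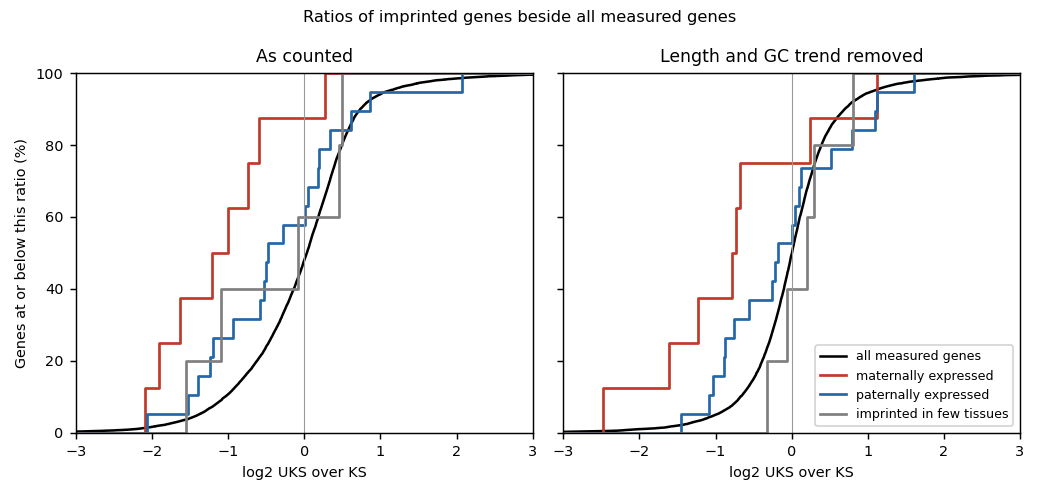
Cumulative share of genes (percent, vertical axis) at or below each log2 ratio of UKS over KS (horizontal axis), as counted on the left and with the length and GC trend removed on the right. The black line is all measured genes, and the stepped lines are the 8 maternally expressed, 19 paternally expressed and 5 few-tissue genes. The line of the maternally expressed genes lies to the left of the others for most of its course in both panels.

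Among the maternally expressed genes the most abundant in KS was H19, and in UKS it came after Grb10. It is the untranslated RNA next to Igf2 that is known to restrain growth. H19 (chr7:142575529-142578143 on GRCm38, minus strand, a long intergenic noncoding RNA) had 26097 counts in KS and 5394 in UKS, or 989 and 231 CPM. That is 4.28-fold lower in UKS (95% interval 4.16 to 4.41), a log2 ratio of −2.09, and −2.48 with the trend removed. Per kilobase of transcript it led the imprinted genes in KS with 432 CPM per kb, and in UKS with 101 CPM per kb it stood behind Gnas and Dlk1. By counts it was the 86th most abundant gene in KS and the 812th in UKS. Its partner Igf2, the paternally expressed growth factor that shares enhancers with H19, was not among the 40 genes but had a larger difference, with 2512 counts in KS and 181 in UKS. Igf2 was thus 12.3-fold lower (95% interval 10.6 to 14.4), with a log2 ratio of −3.46. Both genes of the pair were lower in UKS, although they are expressed from opposite parental alleles. The 11 measured genes within 1 Mb of H19 that are on neither imprinted list had a median ratio of 0.07.

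An exon of H19 carries a microRNA precursor, and its 2 mature products are shown because their host was the most abundant imprinted RNA in KS. The sequences are those of RefSeq, with the seed (bases 2 to 8) in capitals, and mature microRNA levels were not measured here.
mmu-miR-675-5p: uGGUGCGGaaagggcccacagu
mmu-miR-675-3p: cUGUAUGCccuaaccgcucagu

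Next to it on chromosome 7, the Kcnq1 domain is controlled by the promoter of Kcnq1ot1, a paternally expressed noncoding RNA that runs through an intron of Kcnq1 against its direction and silences neighbours such as Cdkn1c, Phlda2, Slc22a18 and Ascl2 on the paternal chromosome. Kcnq1ot1 (chr7:143203458-143296549, minus strand) had 373 counts in KS and 61 in UKS, or 14.1 and 2.61 CPM. It was 5.41-fold lower in UKS (95% interval 4.12 to 7.21). Its log2 ratio of −2.07 as counted was −0.22 with the trend removed, and its annotated model is a single transcript of 93092 nt, past the 20000 nt up to which the trend was fitted. Kcnq1, a potassium channel gene, had 4 and 3 counts.

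The maternally expressed genes of that domain did not share 1 direction. Cdkn1c, which encodes the cyclin-dependent kinase inhibitor p57, had 604 counts in KS and 311 in UKS (22.9 and 13.3 CPM), 1.72-fold lower (95% interval 1.496 to 1.98). The log2 ratio of Cdkn1c, −0.74, became −1.23 without the trend. Of the 50-base windows of its transcript 26.62% also occur in the antisense model Gm44732, which had 0 and 5 counts. The other 3 genes stayed under a mean of 1 CPM and were given no log2 ratio. Ascl2, a transcription factor gene of the trophoblast, had 7 counts in KS and 35 in UKS, a 5.65-fold higher CPM in UKS (95% interval 2.47 to 15.1). Slc22a18, a transporter gene, had 18 and 30 counts, and Phlda2, known for restraining placental growth, had 7 and 4. For Phlda2 the interval of the ratio (0.139 to 2.54, UKS over KS) includes equality. Measured neighbours of the domain within 1 Mb that are on neither imprinted list numbered 16 and had a median of 0.01.

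The Dlk1-Meg3 domain on chromosome 12 is the best covered, with 6 of 6 genes measured. In it Dlk1, Rtl1 and Dio3 are expressed from the paternal chromosome, and Meg3, Rian and Mirg are noncoding RNAs of the maternal chromosome that lie one after the other on the plus strand. As counted all 3 noncoding RNAs were lower in UKS, while with the trend removed Rian was not. Meg3 (chr12:109541001-109571726) had 8406 counts in KS and 2366 in UKS (318 and 101 CPM), 3.14-fold lower (95% interval 3.002 to 3.29). Rian (chr12:109603940-109661716), the host of many small nucleolar RNAs, had 10968 and 4147 counts (415 and 178 CPM), 2.34-fold lower (95% interval 2.26 to 2.42). Mirg (chr12:109729764-109749460), a microRNA host, had 226 and 124 counts, 1.61-fold lower (95% interval 1.29 to 2.02). With the trend removed the order changed: the log2 ratios went from −1.64 to −0.73 for Meg3, from −1.22 to 0.24 for Rian, whose transcript has a GC content of 35.8%, and from −0.60 to −0.68 for Mirg.

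Of the 3 protein-coding genes of the domain Dlk1 and Dio3 were higher in UKS. Rtl1 was lower, but it passed the minimum only through its level in KS. Dlk1 (chr12:109452823-109463336), a transmembrane protein related to Notch ligands that is known to hold back adipocyte differentiation, had 11107 counts in KS and 17889 in UKS (421 and 766 CPM), 1.82-fold higher in UKS (95% interval 1.78 to 1.86). Its log2 ratio was 0.86 and 0.80 with the trend removed, and its level per length in UKS, 165 CPM per kb, was second among the imprinted genes after Gnas. Dio3 (chr12:110279068-110281097), the deiodinase that inactivates thyroid hormone, had 27 and 175 counts (1.02 and 7.50 CPM), 7.33-fold higher (95% interval 4.87 to 11.4). Its log2 ratio of 2.07 (1.61 with the trend removed) was the highest of the 33. Rtl1, derived from a retrotransposon and needed for placental vessels, had 46 and 10 counts (1.74 and 0.43 CPM), 4.07-fold lower (95% interval 2.03 to 9.04), with a log2 ratio of −0.94 on the scale that adds 1 CPM. So Dlk1 and Dio3, at the ends of the domain, were higher in UKS, and the 4 listed genes between them were lower as counted. Of these, Rian was not lower with the trend removed, and Rtl1 passed the minimum only through KS. The unlisted gene model AL591207.3, between Mirg and Dio3 and next to Dio3, was higher, with 11 and 57 counts (log2 ratio 1.28). Of the neighbours of the domain within 1 Mb on neither imprinted list 20 were measured, this gene model among them, with a median of −0.09.

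**Figure D3:**
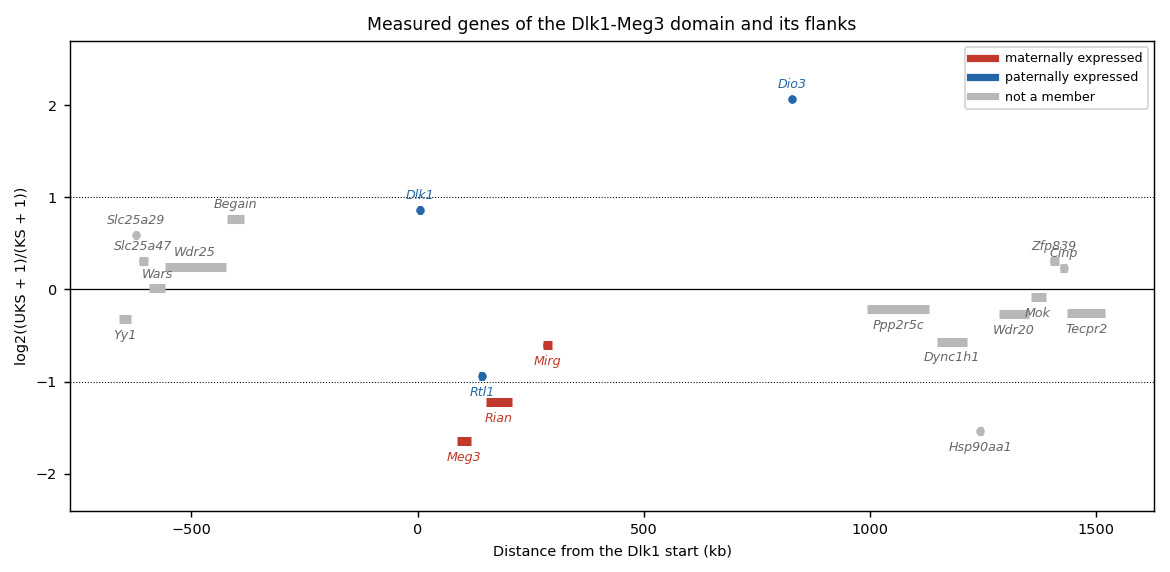
Log2 ratio of UKS over KS (vertical axis) against the distance from the start of Dlk1 in kb (horizontal axis) for measured named genes of the Dlk1-Meg3 domain and its flanks, 1 library each, with predicted gene models left out. Bars span the gene, points mark short genes, red is maternally expressed, blue paternally expressed and grey not among the 40 genes. Dlk1 and Dio3 lie above 0, and Meg3, Rtl1, Rian and Mirg lie below, as counted (Rian is at 0.24 with the trend removed, which is not drawn). The gene model AL591207.3 next to Dio3, at 1.28, is among those left out.

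Rtl1 is transcribed against the direction of Meg3 and Rian, and the opposite strand, transcribed from the maternal chromosome, carries microRNAs that are fully complementary to its transcript. RefSeq places 11 mature microRNAs antisense to an exon of Rtl1, and 1 from each of 5 precursors is given here, to mark where the transcripts of the 2 strands overlap. The sources used here do not say if strand was used in counting, so part of the counts of Rtl1 could stem from the opposite strand, which was not tested. The seed is in capitals, and the bases of the 6358-nt Rtl1 transcript that each is complementary to are 5072 to 5092 for miR-431-5p, 3749 to 3770 for miR-433-3p, 2642 to 2663 for miR-127-3p, 965 to 986 for miR-434-3p and 199 to 220 for miR-136-5p.
mmu-miR-431-5p: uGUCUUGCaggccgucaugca
mmu-miR-433-3p: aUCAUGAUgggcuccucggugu
mmu-miR-127-3p: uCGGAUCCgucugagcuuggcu
mmu-miR-434-3p: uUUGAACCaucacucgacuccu
mmu-miR-136-5p: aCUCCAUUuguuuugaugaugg

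All 5 seeds differ from each other. On the same strand as their hosts, Mirg carries 26 mature microRNAs (8 within exons), Rian 6 and Meg3 3. Among the mature microRNAs placed in the 40 genes 1 seed, GGUUGCC, occurs more than once, in miR-453 and miR-496a-5p of Mirg.

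A promoter window of Meg3 (chr12:109540746-109541045, plus strand, GRCm38.p6, from RefSeq) is shown because Meg3 gives its name to the domain. Methylation of this window was not measured here. A second RefSeq window of Meg3 (chr12:109545148-109545447) has 1 CpG and no match to the hexamer named next, and is not printed. The window at the first start holds 13 CpG dinucleotides and 1 match to TGCCGC on either strand (read here as GCGGCA, in capitals), the hexamer that the imprint-keeping zinc finger protein ZFP57 binds when it is methylated.
Meg3: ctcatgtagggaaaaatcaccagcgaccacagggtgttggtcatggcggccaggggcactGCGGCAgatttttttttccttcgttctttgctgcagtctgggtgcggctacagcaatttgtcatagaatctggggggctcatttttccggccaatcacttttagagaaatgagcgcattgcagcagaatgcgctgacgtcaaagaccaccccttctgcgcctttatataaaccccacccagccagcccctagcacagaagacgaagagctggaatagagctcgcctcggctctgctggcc

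In the Peg3 domain, at the centromeric end of chromosome 7, the large zinc finger gene Peg3 and the ubiquitin protease gene Usp29 are both paternally expressed and start back to back. Peg3 (chr7:6703892-6730431, minus strand) had 2262 counts in KS and 1371 in UKS (85.7 and 58.7 CPM), 1.46-fold lower (95% interval 1.36 to 1.56). Usp29 (chr7:6730578-6967219, plus strand) had 40 and 51 counts, and Zim1, a maternally expressed zinc finger gene, had 33 and 40. The intervals of Usp29 (0.934 to 2.24, UKS over KS) and Zim1 (0.843 to 2.24) include equality. The log2 ratios of Peg3, Usp29 and Zim1 were −0.54, 0.34 and 0.27, and with the trend removed they were 0.09, 1.09 and 1.12. Usp29 and Zim1 passed 2-fold only then, and both rest on at most 51 counts per library. Of the 50-base windows of the Usp29 transcript 33.8% are shared with other genes, mostly the antisense Zim3, which had 0 counts in both libraries.

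The stretch shared by the promoter windows of Peg3 and Usp29 (chr7:6730370-6730632, GRCm38.p6, from RefSeq, printed on the plus strand) shows how close the 2 starts lie. Its 263 bases hold 13 CpG dinucleotides and no match to TGCCGC on either strand, and there are no capitals in it.
Peg3 and Usp29: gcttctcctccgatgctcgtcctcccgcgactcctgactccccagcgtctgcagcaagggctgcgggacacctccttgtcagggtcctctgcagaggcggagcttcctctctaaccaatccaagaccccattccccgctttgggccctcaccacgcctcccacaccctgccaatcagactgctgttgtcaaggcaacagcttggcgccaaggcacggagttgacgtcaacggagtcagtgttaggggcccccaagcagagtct

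Plagl1, a paternally expressed zinc finger transcription factor known as a regulator of a network of imprinted genes, was lower in UKS. It lies at chr10:13060504-13131694 and had 2042 counts in KS and 747 in UKS (77.4 and 32.0 CPM), 2.42-fold lower (95% interval 2.22 to 2.63). On the log2 scale Plagl1 stood at −1.25, or −0.89 without the trend, so that it passed 2-fold only as counted. The promoter window below (chr10:13090582-13090881, plus strand, GRCm38.p6, from RefSeq) is shown for comparison with that of Meg3. It has 26 CpG and a GC content of 70.7%, and its 1 match to TGCCGC (read as GCGGCA) is in capitals.
Plagl1: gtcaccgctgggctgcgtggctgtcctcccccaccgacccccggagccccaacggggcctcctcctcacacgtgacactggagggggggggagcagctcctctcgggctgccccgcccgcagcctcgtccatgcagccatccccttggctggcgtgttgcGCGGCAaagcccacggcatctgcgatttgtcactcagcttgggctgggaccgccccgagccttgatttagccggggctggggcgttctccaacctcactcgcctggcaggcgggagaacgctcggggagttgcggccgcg

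RefSeq gave 50 promoter windows, each of 300 bases (250 before and 50 after a start), for 33 of the 40 genes. None was matched for Cdkn1c, H19, Impact, Peg10, Peg13, Rtl1 and Sgce. The hexamer occurred in 13 of the 50 windows (26%), against 3813 of 32851 windows of all genes (11.6%). The windows of the imprinted genes held a median of 13 CpG and those of all genes 7. A match is a description of the letters and not of binding.

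On proximal chromosome 6 the Peg10 domain had 3 of 4 genes at least 2-fold lower as counted, against 10.7% of all genes. With the trend removed 1 of the 4 (Asb4) was, against 4.98% of all genes. Peg10, a paternally expressed gene of retrotransposon origin that is needed for the placenta, had 3411 counts in KS and 1302 in UKS (129 and 55.8 CPM), 2.32-fold lower (95% interval 2.17 to 2.47). Sgce, the sarcoglycan gene that starts next to Peg10 on the other strand, had 1057 and 940 counts and a log2 ratio of 0.01, with a ratio of CPM between 0.920 and 1.10. Ppp1r9a, the gene of the actin-binding protein neurabin, had 127 and 40 counts, 2.81-fold lower (95% interval 1.95 to 4.11). Asb4, a maternally expressed gene of an ankyrin repeat and SOCS box protein, had 248 and 41 counts (9.39 and 1.76 CPM), 5.35-fold lower (95% interval 3.83 to 7.64). Peg10 and Sgce, both paternally expressed from neighbouring starts, thus differed from each other by more than their counting intervals. With the trend removed the log2 ratio was −0.76 for Peg10, 0.01 for Sgce, −0.32 for Ppp1r9a and −1.61 for Asb4. The 5 measured neighbours on neither imprinted list had a median of −0.02.

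Grb10, on chromosome 11, encodes an adaptor protein that dampens insulin and growth factor receptor signalling. It had 15850 counts in KS and 7006 in UKS (600.4 and 300.1 CPM), 2.001-fold lower (95% interval 1.95 to 2.06). The log2 ratio of Grb10 was −0.998, just short of 2-fold with the added 1 CPM, and −0.79 with the trend removed. Ddc, its neighbour and the decarboxylase of dopamine and serotonin synthesis, had 5 counts in KS and 0 in UKS. The interval of its ratio, UKS over KS, reaches up to 1.23 and includes equality.

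In the Snrpn domain on chromosome 7, the mouse counterpart of the Prader-Willi and Angelman region, Ndn and Snrpn, both paternally expressed, differed little. Ndn, known as a suppressor of growth in neurons, had 1894 counts in KS and 1914 in UKS, a ratio of CPM of 1.14 (95% interval 1.07 to 1.22). Snrpn, which encodes a spliceosome protein, had 313 and 286 counts, a ratio of 1.03 (95% interval 0.877 to 1.22). Magel2, a gene of the same family as Ndn, had 4 and 5 counts and was not given a log2 ratio. Ube3a, a ubiquitin ligase gene that is imprinted in neurons but biallelic in most cells, had 2700 and 795 counts (102 and 34.05 CPM), 3.004-fold lower (95% interval 2.77 to 3.26). For this transcript of 9856 nt, with a GC content of 36.9%, the log2 ratio of −1.56 became −0.06 without the trend. Of the 50-base windows of that transcript 27.4% are shared with other genes, mostly with the antisense Snhg14, a paternally expressed RNA that had 107 and 25 counts and was itself 3.79-fold lower (95% interval 2.43 to 6.11).

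Slc38a4 and Airn were the other genes past 2-fold on both scales. Slc38a4 (chr15:96994820-97055956), a paternally expressed amino acid transporter gene of placenta and liver, had 2684 counts in KS and 810 in UKS (102 and 34.7 CPM), 2.93-fold lower (95% interval 2.71 to 3.17). Its log2 ratio was −1.52 and −1.09 with the trend removed, and 15 measured neighbours within 1 Mb on neither imprinted list had a median of −0.43. The liver markers had a sum of 47 counts in each library, mostly of Alb, and the trophoblast markers 0 or 1 count, and their part in this difference was not tested. Airn (chr17:12741311-12860136), the noncoding RNA that silences Igf2r on the paternal chromosome, had 263 and 74 counts (9.96 and 3.17 CPM), 3.14-fold lower (95% interval 2.42 to 4.13). The log2 ratios of Airn on the 2 scales were −1.39 and −1.45. The annotated Airn model is a spliced form of 1375 nt, which need not be the form expressed. The trend removed for Airn was taken from this model, so its value on the second scale depends on it. Igf2r, the maternally expressed receptor that clears IGF2, had 22691 and 12045 counts, 1.67-fold lower (95% interval 1.63 to 1.70), and so was lower together with its silencer.

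**Figure D4:**
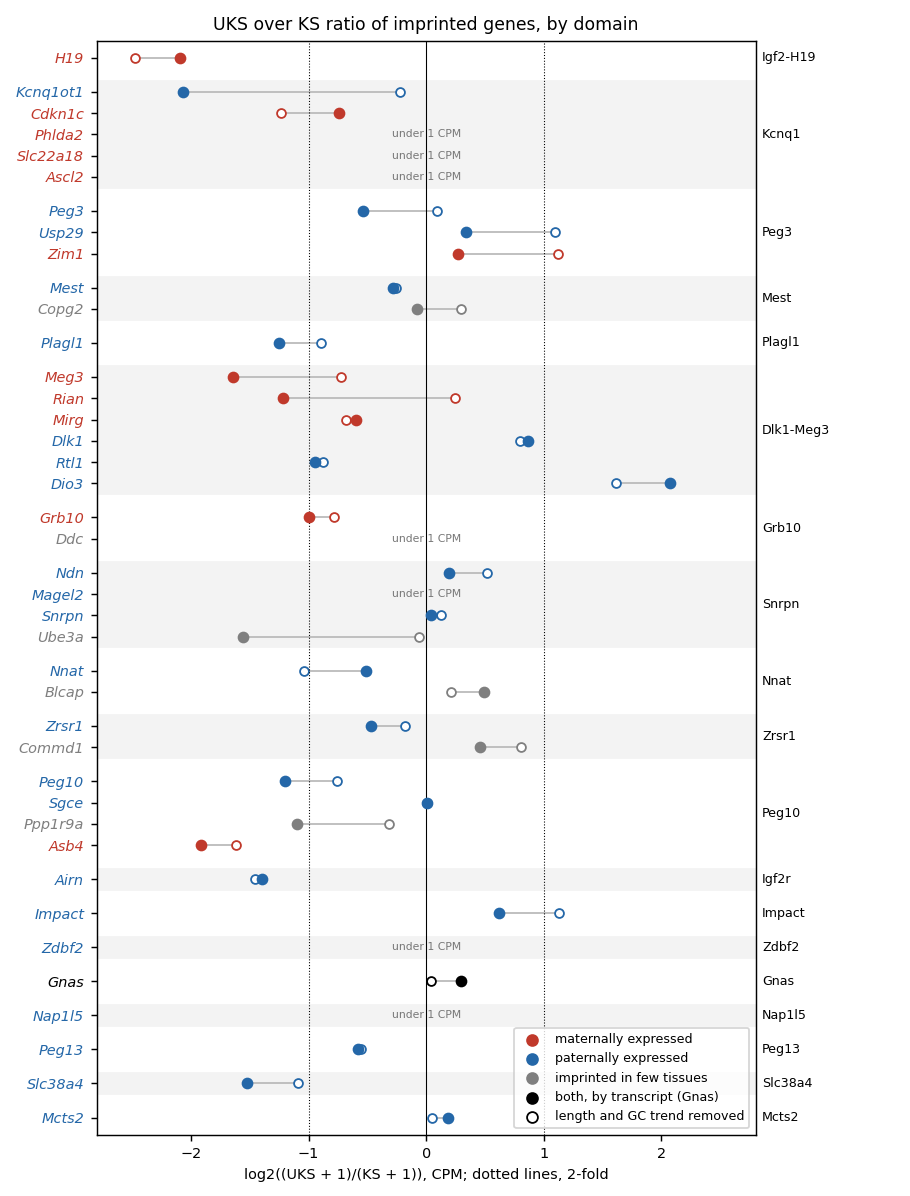
Log2 ratio of UKS over KS on the CPM + 1 scale for each imprinted gene, by domain, as counted (filled) and with the length and GC trend removed (open), 1 library each. Dotted lines mark 2-fold, and the 7 genes under a mean of 1 CPM have no point. Filled points of 11 genes lie at or left of the lower line and that of Dio3 lies right of the upper line, and Kcnq1ot1, Rian and Ube3a have the longest connecting lines.

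Of the noncoding imprinted genes, 7 of 7 (H19, Kcnq1ot1, Meg3, Rian, Mirg, Airn and Peg13) lay below 0 and 5 were at least 2-fold lower. Their median was −1.39. Of the 845 other measured noncoding genes 59.2% lay below 0 and 15.5% were at least 2-fold lower (median −0.15). With the trend removed 6 of the 7 lay below 0 (all but Rian) and 2 (H19 and Airn) were at least 2-fold lower (median −0.68). Of the other noncoding genes 60.4% then lay below 0 and 9.35% were at least 2-fold lower (median −0.16). As counted the 26 measured protein-coding imprinted genes had a median of −0.18. Of them 6 (23.1%) were at least 2-fold lower and 1 (3.85%) was higher, against 10.7% and 5.81% of all genes.

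Several paternally expressed genes of the list lie inside or across a protein-coding gene that is on 1 of the imprinted lists. There were 8 such pairs, of which 6 had both genes measured, and in these 6 the paternally expressed gene had the lower ratio. An overlap outside that choice goes the other way. Snrpn (log2 ratio 0.04) overlaps the gene model Gm38393, with 46 counts in KS and 7 in UKS (−1.08). For Ube3a and the paternally expressed Snhg14, which overlap, the order depends on the scale. With the added 1 CPM Snhg14 had the higher log2 ratio (−1.29 against −1.56). From CPM without it Snhg14 was 3.79-fold lower in UKS and Ube3a 3.004-fold lower. The pairs were set side by side after their values had been seen, and no test was made. The difference between the 2 log2 ratios of a pair ran from −0.997 to −0.20 as counted and from −1.24 to −0.36 with the trend removed. Nnat, a small membrane proteolipid gene within an intron of Blcap, had 69 counts in KS and 36 in UKS (log2 ratio −0.51), while Blcap, a gene with a role in cell death, had 1038 and 1298 (0.49). Zrsr1, an intronless gene of a splicing factor, had 266 and 163 counts (−0.47), while Commd1, a regulator of copper transport and NF-kB around it, had 836 and 1021 (0.45). These 2 pairs lay on opposite sides of 0, and for the 4 genes the counting intervals leave out equality.

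As counted the other pairs differed less. Mest, a paternally expressed hydrolase gene, had 154 counts in KS and 108 in UKS (−0.28), and Copg2, a coat protein gene that meets it end to end, had 1017 and 851 (−0.08). Mest and Copg2 share 912 exon bases on opposite strands, and Zrsr1 and Commd1 share 412, so reads there cannot be told apart without strand. Peg13, a noncoding RNA within Trappc9, had 307 and 174 counts (−0.58), and Trappc9, a vesicle transport gene, had 1139 and 1107 (0.13). Mcts2, an intronless copy of Mcts1 within H13, had 207 and 211 counts (0.18), and the peptidase gene H13 had 5057 and 6304 (0.49). The sixth pair is Airn with Igf2r. For Mest with Copg2 and for Mcts2 with H13 the counting intervals of the pair overlap, and for the other 4 pairs they do not. In the pairs not measured on both sides, Kcnq1ot1 lay within Kcnq1, and Nap1l5, a histone chaperone-like gene with 8 and 3 counts, lay within Herc3, with 333 and 347. A microRNA in an intron of Mest, with its seed in capitals, is printed because it is made from the same primary transcript as the host, and its own level was not measured.
mmu-miR-335-5p: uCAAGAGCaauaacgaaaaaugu

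**Figure D5:**
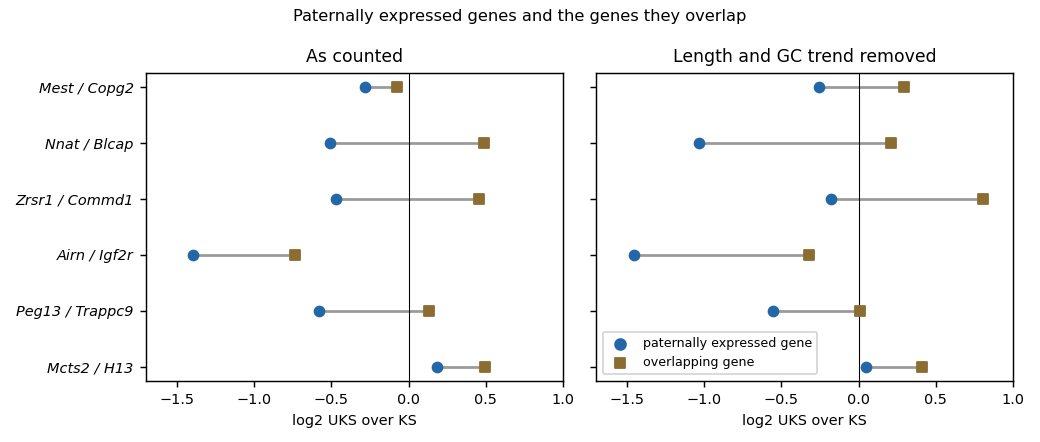
Log2 ratio of UKS over KS (horizontal axis) for the 6 pairs of a paternally expressed gene (circle) and the gene it overlaps (square) that were both measured, as counted on the left and with the length and GC trend removed on the right, 1 library each. In each row the circle lies to the left of the square. Pairs with genes outside the imprinted lists are not drawn.

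The 3 genes that follow stand alone in their domains. Gnas, the gene of the stimulatory G protein alpha subunit with transcripts from either parent, was the most abundant of the 40 in UKS. It had 26002 counts in KS and 28160 in UKS (985 and 1206 CPM), 1.22-fold higher (95% interval 1.20 to 1.24), with a log2 ratio of 0.29. The count does not separate its maternal, paternal and biallelic transcripts. Impact, a paternally expressed regulator of the amino acid starvation response on chromosome 18, had 1984 and 2703 counts (75.2 and 116 CPM), 1.54-fold higher (95% interval 1.45 to 1.63). The log2 ratio of Impact was 0.62 and, with the trend removed, 1.13. Zdbf2, a paternally expressed zinc finger gene known for its effect on growth, had 3 counts in KS and 0 in UKS, at the floor, and no fold is given.

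Where a domain had 2 or more measured genes (8 domains), both signs occurred in 6. In the Peg10 domain the positive sign is that of Sgce, at 0.01. In the Peg3 domain it is that of Usp29 and Zim1. The counting intervals of these genes include equality. Of all genes 48.1% lay below 0, and mixed signs were not compared with those of other groups of genes. In the Kcnq1 and Mest domains the measured genes all lay below 0 as counted. Copg2 was at 0.29 with the trend removed, so that the Mest domain held both signs, and the 3 genes of the Peg3 domain all lay above 0. Over whole chromosomes, the genes outside the list had medians between −0.14 and 0.22 on the 10 chromosomes concerned. Around the domains whose neighbours are not described above, unlisted genes within 1 Mb had medians from −1.13 (Snrpn, 2 genes) to 0.66 (Nap1l5, 4 genes). They were −0.62 at Zrsr1 (15 genes), −0.28 at Plagl1 (9) and −0.22 at Igf2r (10), and 0.42 at Impact (8) and 0.33 at Peg13 (6).

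Related genes give the setting. Of the 49 other imprinted genes that were found, 31 were measured, 5 (16.1%) were at least 2-fold lower (Igf2, Htr2a, Adam23, Snhg14 and Ago2), against 10.7% of all genes, and none was at least 2-fold higher, against 5.81%. Their median was −0.28. Adam23, next to Zdbf2 on chromosome 1, had 674 counts against 136 and was 4.38-fold lower in UKS (95% interval 3.64 to 5.31). Htr2a, a serotonin receptor gene, had 411 and 46 counts, 7.90-fold lower (95% interval 5.82 to 10.97). With the trend removed Igf2, Htr2a and Adam23 remained past 2-fold, and Qpct (217 and 353 counts) was at least 2-fold higher.

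Of 17 measured genes that set or keep imprints, 3 (17.6%) were at least 2-fold lower as counted, against 10.7% of all genes, and 1 (5.88%) was higher, against 5.81%. Their median was −0.18. The lower genes were Smchd1, a chromatin protein of the inactive X chromosome and some imprinted clusters, with 3781 counts in KS and 1350 in UKS (log2 ratio −1.29), Zfp445, a zinc finger protein that acts beside ZFP57, with 1991 and 784 (−1.14), and the demethylating oxygenase gene Tet1, with 212 and 81 (−1.01). The higher gene was Dnmt3l, a cofactor of DNA methylation in germ cells, with 6 and 46 counts (0.227 and 1.97 CPM), which passed the minimum only through UKS. With the trend removed none of the 17 passed 2-fold in either direction. The maintenance methyltransferase gene Dnmt1 had 10299 and 10619 counts (0.22), and Zfp57 itself had 658 and 332 (−0.77).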

How the data were processed

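RNA was measured in 2 mouse embryonic fibroblast lines, KS and UKS, 1 library each, grouped by the sample descriptions. TRIzol extraction of total RNA and a TruSeq RNA kit were used, per the labels' protocols. The submitters' processing notes name HISAT2, StringTie and GRCm38.p5. The sources used here do not give the counting program, its annotation release or its use of strand. Both lines carry another engineered change, which is not reported here. The authors deposited estimated counts (expected counts) for each gene and library, without scaling to depth. Of the genes above 0, 23.1% in KS and 21.5% in UKS had counts that were not whole, so counts were rounded. Rows sharing a symbol were 204.

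TMM factors (0.994 and 1.01) came from edgeR 4.0.16 in R 4.3.3. The ratio was log2((UKS + 1)/(KS + 1)) in CPM, for genes whose mean reached 1 CPM, and 2-fold was a size, not a test. Intervals of count ratios are exact conditional binomial (Clopper-Pearson, scipy 1.17.1) at 95%, for counting error only. Coordinates and transcripts came from GENCODE M21 on GRCm38, matched to 51633 of 51912 identifiers, and sequences from RefSeq tables on GRCm38.p6. The trend was a robust regression (statsmodels 0.14.6) with cubic terms for log2 transcript length (kept within 200 and 20000 nt) and for GC content (kept within 35 and 65%). Each gene took its longest protein-coding transcript, or its longest transcript. Steps were tested on simulated data. Every member could be named. Of related genes, those past 2-fold or in a domain of such a member could be. Members, parental groups and lists were chosen with earlier results of these data known. Alternatives were other pseudocounts, minimums and scalings (DESeq2 1.42.0 size factors, total count) and the trend removed.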

Additional observations from a re-analysis of the deposited data

How the results depend on the processing

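No paired analysis was possible because each group has 1 library. With the length and GC trend removed, imprinted genes at least 2-fold lower went from 11 to 6 and those higher from 1 to 4, and their median went from −0.54 to −0.18. For maternally expressed genes the higher count went from 0 to 1 and the median from −1.11 to −0.76, and for paternally expressed genes the counts became 3 lower and 3 higher and the median −0.18. For genes imprinted in few tissues the lower count went from 2 to 0 and the median from −0.08 to 0.21. Other imprinted genes then had 3 lower and 1 higher, imprint control genes 0 lower and 0 higher, and Rian went from −1.22 to 0.24. With a minimum mean of 5 CPM, Dio3 and Ppp1r9a dropped out, leaving 0 imprinted genes higher, 0 paternally expressed genes higher, 1 few-tissue gene lower and 0 imprint control genes higher, with medians of −1.22 (maternal) and 0.19 (few tissues). With a pseudocount of 5 CPM, Ppp1r9a and Airn fell short of 2-fold, 1 few-tissue gene was lower, no imprint control gene was higher (0) and the maternal median was −1.04. With no minimum the maternal median was −0.74. A pseudocount of 0.5 CPM added Rtl1 and DESeq2 size factors added Grb10 to the lower genes. Scaling by total count changed no call among the 33. The causes were not tested, other than fewer genes at the higher minimum. Depth limits the 7 genes under 1 CPM most. No replicate could be left out.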
